A study of Mus musculus with 6 samples.

Results

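The Schlafen family was examined through its 7 listed genes, Slfn1, Slfn2, Slfn3, Slfn4, Slfn5, Slfn8 and Slfn9, matched by symbol among the 15483 genes of the deposited tables. All 7 were present in all 6 libraries and all 7 passed the filter of a mean of at least 1 FPKM, which left 10666 genes to test. Slfn14, a further family gene that was no member, was also listed, at values between 0 and 1.20 FPKM, and fell below the filter.

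The libraries were RNA-seq of cells sorted from mouse bone marrow as regulatory T cells (Tregs, the suppressive CD4 T cells whose identity rests on the transcription factor Foxp3). Of these, 3 came from wild type mice 3 months after irradiation (IR) and 3 from wild type control mice. The design text describes a gate on Foxp3+ cells that were CD3+, CD4+ and NK1.1-. The labels give neither the dose, the age or sex of the animals, nor whether each library was a separate animal. The p-values set each group difference against the spread within groups, which may be technical variation only. They may therefore be too small for a statement about animals.

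Schlafen genes were named for their effect on thymocyte growth, and many are induced by type I interferon. The proteins share an N-terminal nuclease-like region, and the long members carry a helicase-like region behind it. In lymphocytes the family is best known for Slfn2, whose loss breaks T cell quiescence, and in myeloid cells for Slfn4, which interferon and microbial signals induce. Several members act on transfer RNA, either by cutting it or, for Slfn2, by shielding it from cleavage.

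The 6 libraries held more than T cell transcripts. Foxp3 averaged 12.6 ± 0.795 FPKM in irradiated and 22.6 ± 1.93 FPKM in control libraries (SD, n = 3 each), and Cd3e, which encodes a CD3 subunit, 24.96 ± 1.42 FPKM in irradiated and 39.5 ± 2.93 FPKM in control libraries. The summed level of 12 neutrophil markers ran from 99300.0 to 102210.0 FPKM in irradiated and from 67975.0 to 73015.0 FPKM in control libraries, above that of 10 T cell core genes, which was 255.9 to 265.5 FPKM in irradiated and 429.4 to 445.9 FPKM in control libraries. Klrb1c, the gene of NK1.1, against which cells were gated, stood at 9.52 ± 0.420 FPKM in irradiated and 17.9 ± 1.36 FPKM in control libraries. A gene's value is therefore an average over a mixture, in which fewer cells of a type and less RNA per cell cannot be told apart.

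All 7 genes lie in one cluster on chromosome 11, from 82951349 to 83215154 (GRCm38, GENCODE M21), in the order Slfn5, Slfn9, Slfn8, Slfn2, Slfn1, Slfn4 and Slfn3. Slfn5, Slfn2, Slfn1, Slfn4 and Slfn3 are on the plus strand and Slfn9 and Slfn8 on the minus strand. The longest annotated coding length was 1014 bases for Slfn1 and 1137 for Slfn2, the short members, 1923 for Slfn3 and 1809 for Slfn4, the intermediate members, and 2655 for Slfn5 and 2733 each for Slfn8 and Slfn9, the long members. Slfn3 begins 1113 bases after the end of Slfn4.

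The sequences upstream of 4 genes are shown because they compare the pair with the largest falls, Slfn5 and Slfn8, with Slfn9, which did not pass the test and lies beside Slfn8, and with Slfn4, the member that rose. Each is the 250 bases before a RefSeq transcription start on GRCm38.p6, given 5′ to 3′ on the strand of the gene. Capitals mark matches on either strand to the core of the interferon-stimulated response element (ISRE), searched as GAAA, any 2 bases and GAAA.
Slfn5 (chr11:82951852-82952101, plus strand): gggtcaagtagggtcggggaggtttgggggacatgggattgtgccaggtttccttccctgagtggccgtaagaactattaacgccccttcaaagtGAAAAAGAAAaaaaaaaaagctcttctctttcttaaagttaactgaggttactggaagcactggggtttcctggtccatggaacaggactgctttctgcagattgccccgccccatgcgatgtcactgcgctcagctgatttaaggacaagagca
Slfn8 (chr11:83020811-83021060, minus strand): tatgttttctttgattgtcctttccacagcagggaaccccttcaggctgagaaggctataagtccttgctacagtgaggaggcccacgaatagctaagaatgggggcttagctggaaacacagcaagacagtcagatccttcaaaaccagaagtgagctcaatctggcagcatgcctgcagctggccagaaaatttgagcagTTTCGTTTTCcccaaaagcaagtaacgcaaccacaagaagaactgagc
Slfn9 (chr11:82991831-82992080, minus strand): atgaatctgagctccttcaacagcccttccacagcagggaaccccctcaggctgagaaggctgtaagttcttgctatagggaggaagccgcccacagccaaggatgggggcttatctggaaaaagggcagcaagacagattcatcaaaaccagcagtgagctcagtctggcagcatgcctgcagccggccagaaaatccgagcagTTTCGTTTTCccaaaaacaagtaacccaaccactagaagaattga
Slfn4 (chr11:83174936-83175185, plus strand): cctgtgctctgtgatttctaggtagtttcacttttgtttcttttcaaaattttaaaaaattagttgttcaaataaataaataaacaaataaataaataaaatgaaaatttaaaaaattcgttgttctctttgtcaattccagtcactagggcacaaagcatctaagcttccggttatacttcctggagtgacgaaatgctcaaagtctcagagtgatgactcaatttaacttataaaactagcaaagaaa

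The ISRE core was found in the windows of 3 of the 7 genes. A window here is the 250 bases before and 50 bases after a start, all 7 genes had such a window in the RefSeq table, and Slfn8 had a further window at a start further downstream, where the same match lies at -136. The match began at position -155 in Slfn5 (GAAAAAGAAA), at -48 in Slfn8 and at -45 in Slfn9 (TTTCGTTTTC in both, read on the other strand). Over all 32851 promoter windows 3.44% held the core, and counted by gene 3.99% of 27025 genes held it in a window. Among the 16 tested interferon-induced effector genes of the list described below that had a window, 11 held it. TTCNNNGAA, the gamma-activated site, was in none of the windows of the 7 genes and in 8.30% of all windows. The upstream sequences of Slfn8 and Slfn9 were identical at 210 of 262 aligned positions (80.2%), where the other pairs had 45.5% to 53.4% in the same gapped alignment. A match is a description of letters and no evidence of a bound site.

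**Figure D1:**
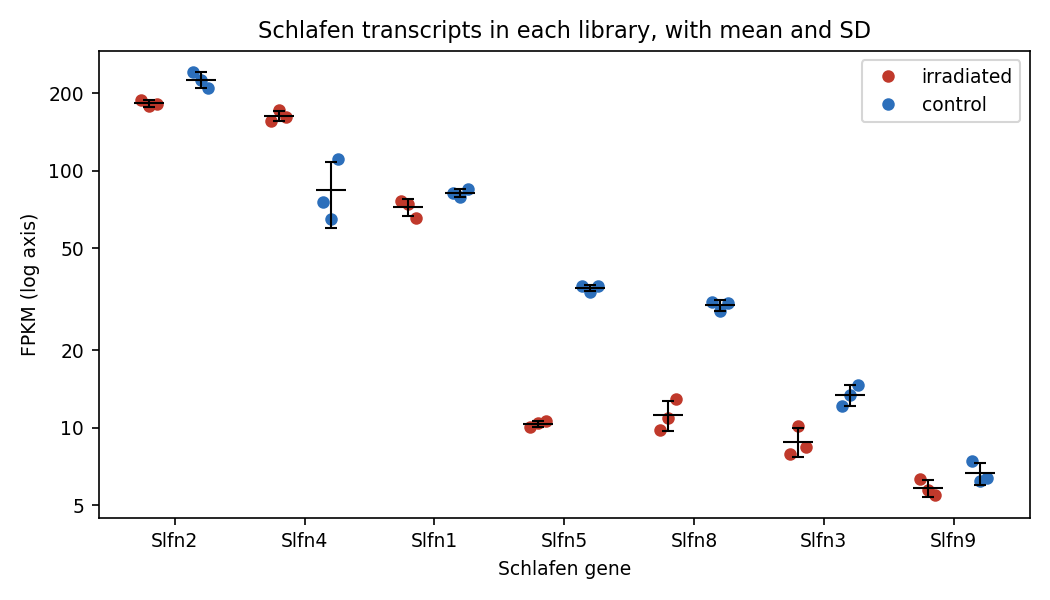
FPKM of each Schlafen gene on a log axis, in irradiated (red) and control (blue) libraries, with 1 point per library and the mean and SD in black. Slfn5 sits between 10.1 and 10.6 in irradiated and between 33.8 and 35.6 in control libraries, and Slfn4 is the gene whose control points lie farthest apart.

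Comparison of irradiated with control libraries asked how these transcripts differed 3 months after irradiation. The family did not move as a block. Slfn5 and Slfn8 fell to 29.6% and 37.5% of their control level, Slfn4 rose to 1.94 times its control level, and Slfn1 and Slfn9 did not pass the test. Slfn2 and Slfn3 fell by smaller amounts on the deposited values, a direction that turned when libraries were scaled to T cell core genes. By limma on log2(FPKM + 1), adjusted over all 10666 tested genes at a threshold of 0.05, 1 of the 7 was higher and 4 were lower. Over all tested genes 16.6% were called, 6.29% higher and 10.3% lower. The median log2 change was -0.30 over the 7 genes and -0.02 over all tested genes.

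In 6 of the 7 genes the irradiated and control values did not overlap, with irradiated values lower in 5 and higher in 1. Over all tested genes 33.6% had no overlap, 20.1% with irradiated values lower and 13.5% with irradiated values higher. Counted among the 10666 log2 changes, that of Slfn5 was number 36 from the lowest and that of Slfn8 number 74 from the lowest, while that of Slfn4 was number 42 from the highest.

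**Figure D2:**
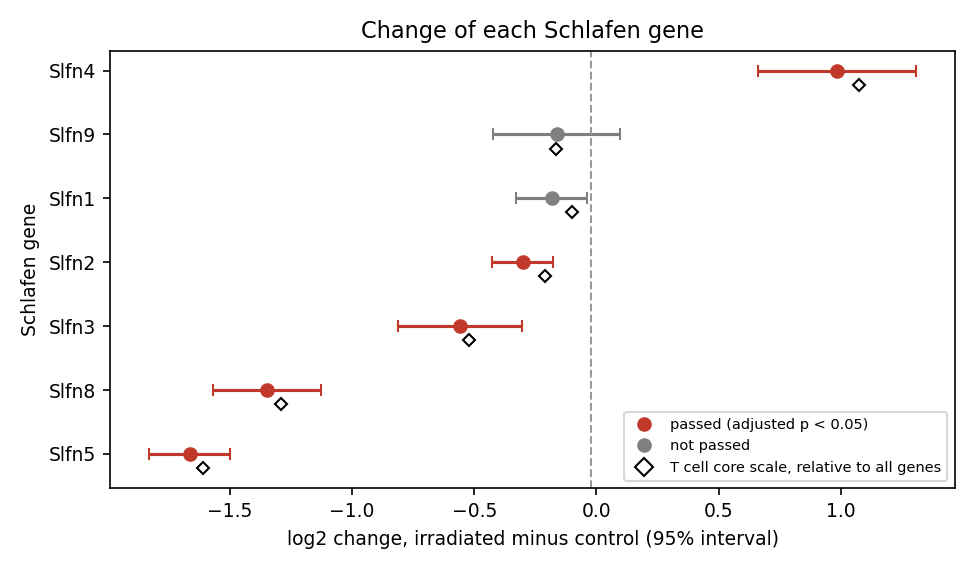
Log2 change of each Schlafen gene, irradiated minus control, on log2(FPKM + 1), with its 95% interval from limma, and a dashed line at the median of all tested genes (-0.02). Open diamonds give the change after scaling to T cell core genes minus the median of all genes on that scale (0.59), without which Slfn1, Slfn2, Slfn3 and Slfn9 stand above 0 on that scale.

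Among the long members, Slfn5 encodes a nuclear protein, and its human counterpart restrains transcription of viral and interferon-induced genes. Slfn5 stood at 10.1, 10.4 and 10.6 FPKM in irradiated replicates 1, 2 and 3, against 35.5, 33.8 and 35.6 FPKM in control replicates 1, 2 and 3. The 3 irradiated libraries lay close together and below every control library. The mean was 10.4 ± 0.280 FPKM in irradiated and 34.98 ± 1.04 FPKM in control libraries (SD, n = 3 each), so irradiated libraries had 29.6% of the control level. The log2 change was -1.66 ± 0.08 (SE, limma adjusted p = 1.34e-07), and lower values were seen in 3 of 3 irradiated libraries. Slfn5os, an antisense gene, overlaps 9333 bases of the Slfn5 gene span and was not analysed here. The library kit marks strand, but the strand setting of the counting is not given in the sources used here, so reads of the pair may not have been separated.

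Slfn8, whose human relatives include the transfer RNA nuclease SLFN13, fell with Slfn5. It stood at 9.83, 10.9 and 12.9 FPKM in irradiated replicates 1, 2 and 3, against 30.96, 28.4 and 30.5 FPKM in control replicates 1, 2 and 3. The groups did not overlap, and the irradiated libraries differed more among themselves (coefficient of variation 13.7%) than the control libraries (4.57%). Irradiated libraries had 37.5% of the control level, with a log2 change of -1.35 ± 0.10 (limma adjusted p = 4.97e-06).

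Slfn9, the neighbour of Slfn8 with the same coding length and the ISRE core at nearly the same place, did not pass. It stood at 6.30, 5.73 and 5.45 FPKM in irradiated replicates 1, 2 and 3, against 7.39, 6.21 and 6.34 FPKM in control replicates 1, 2 and 3, and the groups overlapped. The log2 change was -0.16 ± 0.12 (limma adjusted p = 0.400), with a 95% interval of -0.42 to 0.10 that does not reach the change of Slfn8. Within each library the ratio of Slfn8 to Slfn9 was 1.56, 1.91 and 2.36 in irradiated replicates 1, 2 and 3, against 4.19, 4.57 and 4.80 in control replicates 1, 2 and 3. The ratio was lower in every irradiated library than in any control library. Annotated transcripts of Slfn8 and Slfn9 share 389 distinct 50-base stretches, and of the 4184 such stretches in Slfn8 and the 5963 in Slfn9, 14.6% and 11.2% occur in another Schlafen gene. The most shared partner of both was the pseudogene Slfn10-ps, which was not analysed here, so the split of reads among these copies is uncertain. Slfn5 shared no such stretch with any other Schlafen gene.

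The intermediate members went in opposite directions on the deposited values. Slfn4, an interferon- and pathogen-induced gene of macrophages and granulocytes, stood at 156, 172 and 162 FPKM in irradiated replicates 1, 2 and 3, against 75.8, 65.1 and 111 FPKM in control replicates 1, 2 and 3. Control replicate 3 was higher than the other control libraries but below every irradiated library. The mean was 163 ± 7.92 FPKM in irradiated and 84.0 ± 24.2 FPKM in control libraries (SD, n = 3 each), a ratio of 1.94. The log2 change was 0.99 ± 0.15 (limma adjusted p = 0.000827), higher in 3 of 3 irradiated libraries. Without control replicate 3 it was 1.20 and without control replicate 2 it was 0.82, and Slfn4 passed in both fits.

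Slfn3, which has been studied in T cell subsets and in rat gut epithelium, had 7.93, 10.1 and 8.41 FPKM in irradiated replicates 1, 2 and 3, against 12.2, 13.4 and 14.7 FPKM in control replicates 1, 2 and 3. The groups did not overlap, and irradiated libraries had 65.7% of the control level. The log2 change was -0.56 ± 0.11 (limma adjusted p = 0.00666), while on the T cell core scale it was 0.07, which is -0.52 relative to all genes there. Slfn4 exceeded Slfn3 by 19.7, 17.0 and 19.3 times in irradiated replicates 1, 2 and 3, against 6.22, 4.85 and 7.57 times in control replicates 1, 2 and 3. The Slfn4 to Slfn3 ratio was thus higher in every irradiated library although the genes are neighbours. Their annotated transcripts share 252 of the 4010 distinct 50-base stretches of Slfn4 and of the 3409 of Slfn3, so a part of the reads of the less abundant Slfn3 could come from Slfn4.

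Among the short members, Slfn2, the quiescence factor of T cells and monocytes, stood at 189, 179 and 181 FPKM in irradiated replicates 1, 2 and 3, against 242, 226 and 210.0 FPKM in control replicates 1, 2 and 3. The groups did not overlap, and irradiated libraries had 80.9% of the control level. The log2 change was -0.30 ± 0.06 (limma adjusted p = 0.00400), while on the T cell core scale it was 0.38, which is -0.21 relative to all genes there. Without a trend in the variance the call was lost (adjusted p = 0.0513), against 0.000935 to 0.0513 over all alternatives on other scales.

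Slfn1, whose forced expression halts thymocyte growth, had 76.1, 74.3 and 65.6 FPKM in irradiated replicates 1, 2 and 3, against 81.8, 78.9 and 84.7 FPKM in control replicates 1, 2 and 3. The groups did not overlap, yet Slfn1 did not pass the test. Its log2 change was -0.18 ± 0.07 with a 95% interval of -0.33 to -0.04, an unadjusted p of 0.0184 and a limma adjusted p of 0.0869. The ratio of Slfn2 to Slfn1 was 2.48, 2.40 and 2.76 in irradiated replicates 1, 2 and 3, against 2.96, 2.86 and 2.48 in control replicates 1, 2 and 3, and these ranges overlapped.

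In level per length, Slfn2 was the most abundant member in all 6 libraries. In irradiated libraries Slfn4 followed at 163 FPKM, below Slfn2 in each library, then Slfn1 at 72.0 FPKM. Slfn8 (11.2 ± 1.54 FPKM), Slfn5 (10.4 ± 0.280 FPKM) and Slfn3 (8.82 ± 1.15 FPKM) overlapped there, and Slfn9 was lowest at 5.83 ± 0.433 FPKM. In control libraries Slfn4 (84.0 ± 24.2 FPKM) and Slfn1 (81.8 ± 2.89 FPKM) did not differ beyond their spread. Slfn5, Slfn8, Slfn3 and Slfn9 followed there without overlap, at 34.98 ± 1.04, 29.9 ± 1.37, 13.4 ± 1.26 and 6.65 ± 0.643 FPKM.

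The sum of the 7 genes was similar while its make-up differed. It was 454 ± 7.71 FPKM in irradiated and 477 ± 22.2 FPKM in control libraries (SD, n = 3 each). Slfn4 made up 35.9% ± 1.51 of that sum in irradiated and 17.5% ± 4.40 in control libraries. Slfn2 made up 40.2% ± 1.44 in irradiated and 47.5% ± 4.22 in control libraries. For Slfn5 the share was 2.28% ± 0.0879 in irradiated and 7.34% ± 0.130 in control libraries, and for Slfn8 it was 2.47% ± 0.373 in irradiated and 6.28% ± 0.0985 in control libraries. These shares are of FPKM, which is scaled to transcript length.

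**Figure D3:**
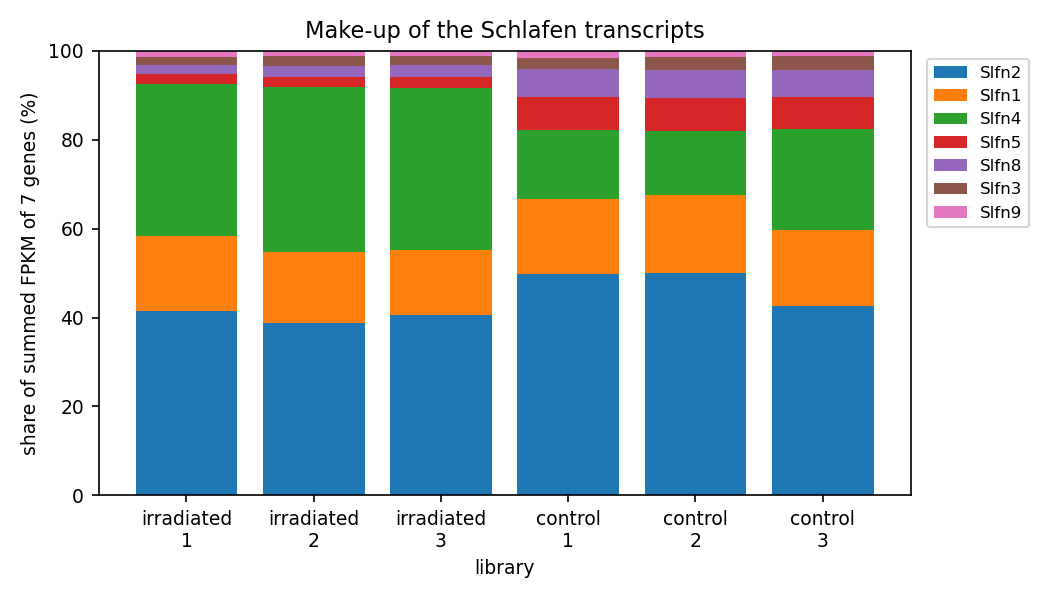
Share of each Schlafen gene in the summed FPKM of the 7 genes, with 1 stacked bar per library starting at 0 and irradiated libraries on the left. The Slfn4 band spans 34.3% to 37.2% in irradiated and 14.4% to 22.6% in control libraries.

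Neighbouring genes went both ways. Within 500 kb on either side of the cluster 23 genes outside the Schlafen family were listed and 17 tested, of which 4 rose, 3 fell and 10 did not pass, with a median log2 change of 0.05. The genes that passed all lie on the Slfn3 side. They include Wfdc17, a secreted inhibitor-like protein of myeloid cells (1.50 ± 0.08, limma adjusted p = 4.04e-07), and the chemokine genes Ccl3 (0.57 ± 0.08, limma adjusted p = 0.000664) and Ccl4 (0.51 ± 0.11, limma adjusted p = 0.00858). The uncharacterised 1700020L24Rik rose by 0.45 ± 0.08. Ccl5, a chemokine of T and NK cells, changed by -0.70 ± 0.06, while on the T cell core scale its change was -0.025 and did not pass. Ccl6, a myeloid chemokine, changed by -0.18 ± 0.05, a direction that turned to 0.50 on the T cell core scale. Its call was lost under median-of-ratios scaling, at a change of -0.15. The call was also lost without the variance trend (-0.18), control replicate 1 (-0.18), irradiated replicate 1 (-0.18) or irradiated replicate 2 (-0.16). Mmp28, a metalloprotease whose span overlaps that of 1700020L24Rik so that reads of the pair may not have been separated, fell by 0.57 on the deposited scale. Slfn4 and Slfn3 lay within the range of the neighbours, -0.70 to 1.50, and Slfn5 and Slfn8 lay below it.

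**Figure D4:**
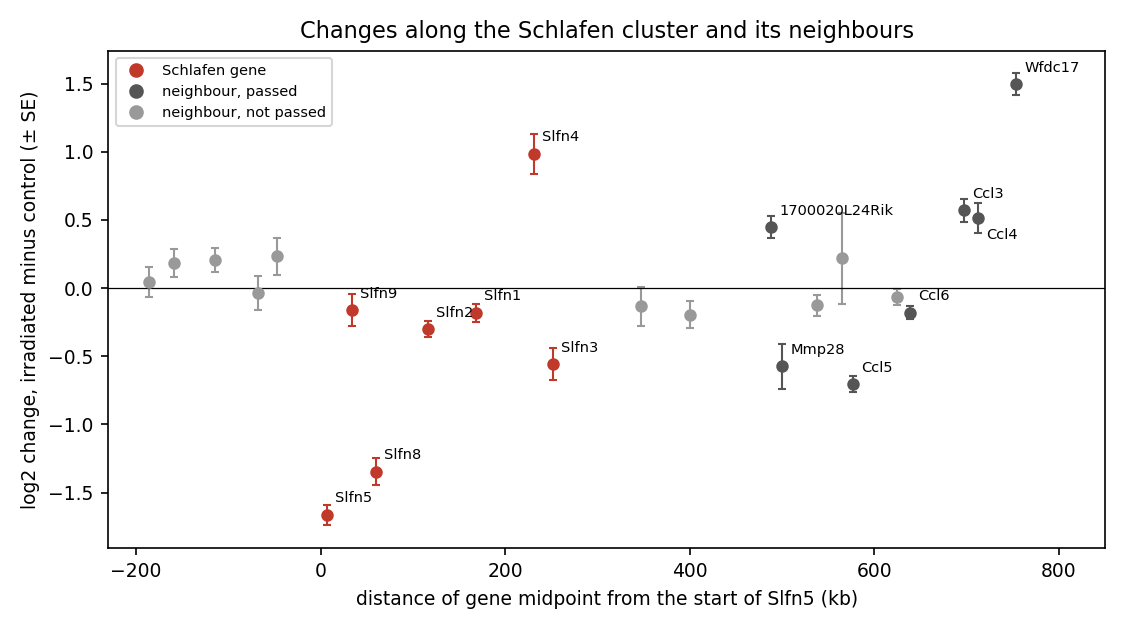
Log2 change, irradiated minus control (± SE), against the distance of the gene's midpoint from the start of Slfn5 in kb, for the 7 Schlafen genes (red) and their tested neighbours (dark grey passed, light grey not passed). Slfn4 (0.99) and Slfn3 (-0.56), which sit side by side, lie on opposite sides of 0 on this scale, while Slfn3 stands at 0.07 on the T cell core scale.

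The genes most like each member over the 6 libraries were sought by the root mean square difference of centred log2(FPKM + 1), leaving out the family. For Slfn5 they were Vcam1 (0.07), Fcna (0.09) and Axl (0.09), an adhesion molecule, a ficolin and a receptor tyrosine kinase that are transcribed in tissue macrophages. Vcam1 had 36.6, 40.9 and 40.7 FPKM in irradiated replicates 1, 2 and 3, against 121, 118 and 114 FPKM in control replicates 1, 2 and 3. For Slfn8 they were the interferon-induced genes Xaf1 (0.07), Ifi213 (0.09) and Lgals3bp (0.09). For Slfn4 they were Lilr4b (0.09), a receptor of myeloid cells, Ints6l (0.13) and Ptges (0.13), a prostaglandin E synthase. Lilr4b had 214, 241 and 217 FPKM in irradiated replicates 1, 2 and 3, against 103, 96.2 and 134 FPKM in control replicates 1, 2 and 3. Like Slfn4, it was highest in replicate 3 among the control libraries, a likeness that its selection over these same libraries favours.

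Likeness to Slfn3 was greatest for Glcci1, Nfkb2 and Foxo1 (0.06 to 0.07), and to Slfn2 for Plbd2, C1galt1c1 and Fkbp1a (0.02 to 0.04). Slfn1 was most like Rmnd5a, Ftsj3 and Ankfy1 (0.02 each), and Slfn9 most like Ptafr, Arid4b and Zfp24 (0.03 to 0.04). Within the family the smallest difference was between Slfn1 and Slfn9 (0.08), Slfn5 and Slfn8 differed by 0.18, and the largest was between Slfn4 and Slfn5 (1.34).

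Interferon genes form the pathway the family is best known to follow. All 20 tested interferon-induced effector genes fell by limma, with a median log2 change of -1.26 and a range of -2.19 to -0.48. On the T cell core scale 15 of the 20 were lower and 5 did not pass. Of all 10666 tested genes 227 were lower and 8824 higher on that scale, with a median of 0.59. Slfn5, Slfn8 and Slfn3 lay inside the range on the deposited scale, and Slfn4, Slfn2, Slfn1 and Slfn9 lay above it. The effectors with the lowest p were Oasl2 (-1.93 ± 0.09) and Oas1a (-1.77 ± 0.09), of the oligoadenylate synthetase family, the antiviral gene Ifit3 (-2.13 ± 0.12) and the chaperone gene Rtp4 (-1.96 ± 0.11). Of 13 genes of interferon alpha and beta receptor signalling 5 fell, 1 rose and 7 did not pass, with a median of -0.22. On the T cell core scale 7 of the 13 were higher, 3 lower and the median was 0.43, below the 0.59 of all tested genes. Irf7 fell to 22.8 ± 2.56 FPKM in irradiated libraries, against 86.2 ± 4.27 FPKM in control libraries (log2 change -1.88 ± 0.08). Stat2 and Irf9, which encode transcription factors of interferon signalling, and Usp18, which damps the receptor, fell too, with log2 changes of -0.58 ± 0.09, -0.74 ± 0.07 and -2.22 ± 0.13, and on the T cell core scale Irf9 stood at -0.07 and did not pass. The receptor genes Ifnar1 and Ifnar2 did not pass (adjusted p = 0.389 and 0.0769), and Socs3, a feedback inhibitor of cytokine signalling, rose (limma adjusted p = 0.00362). These lists were chosen with earlier results of the same data known, so their directions add no independent evidence.

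Of 18 genes of T cell quiescence, the process Slfn2 serves, 7 fell and 11 did not pass, with a median of -0.21. On the T cell core scale 13 of the 18 were higher, 1 was lower and the median was 0.41. Of all 10666 tested genes 8824 were higher and 227 lower there, with a median of 0.59, above that of the quiescence list. The antiproliferative genes Btg1 and Btg2, the ubiquitin ligase gene Peli1 and the repressor gene Bach2 had the lowest p. Of these, Btg1, Btg2 and Peli1 stood above 0 on the T cell core scale (0.28, 0.15 and 0.25), below the median of all genes there. Klf2, a factor that keeps T cells naive and quiescent, had 49.7 FPKM in irradiated and 47.2 FPKM in control libraries and did not pass. Of 14 genes of transfer RNA cleavage and processing 1 fell, Rtcb, the ligase that rejoins cut transfer RNA, and 13 did not pass. Rtcb had a log2 change of -0.25 ± 0.06 (limma adjusted p = 0.0176), which turned to 0.43 on the T cell core scale, and its call was lost without the variance trend, without control replicate 1, without control replicate 2 and without irradiated replicate 3, at changes of -0.25, -0.21, -0.23 and -0.24 (adjusted p 0.00685 to 0.0808 over the alternatives on other scales). Ang, which encodes the angiogenin that Slfn2 counters, stood at 1.20 FPKM in irradiated and 1.51 FPKM in control libraries and did not pass (limma adjusted p = 0.496).

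Marker lists of several cell types moved in the libraries in which the Schlafen genes did. Of 10 monocyte and macrophage markers 9 fell and 1 did not pass (median log2 change -1.32), with a summed level of 1368 to 1426 FPKM in irradiated and 2006 to 2172 FPKM in control libraries. C1qa, C1qb, C1qc and Vcam1, markers of tissue macrophages, changed by -1.83, -1.76, -1.91 and -1.55, and their part in the falls of Slfn5 and Slfn8 was not tested. Of 5 plasmacytoid dendritic cell markers 4 fell, with a summed level of 98.3 to 113 FPKM in irradiated and 211 to 218 FPKM in control libraries. Most of that sum was Irf8, at 64.1 FPKM in irradiated and 101 FPKM in control libraries, and Bst2, at 35.8 and 94.0 FPKM. Bst2 is also counted among the interferon-induced effectors. Of 7 tested B cell markers 7 fell, and the 8 listed summed to 35.2 to 41.8 FPKM in irradiated and 101 to 114 FPKM in control libraries. Of 5 NK markers 4 fell, with a sum of 177 to 179 FPKM in irradiated and 198 to 219 FPKM in control libraries. Most of that sum was Nkg7, the marker that did not pass, at 161 FPKM in irradiated and 164 FPKM in control libraries. Igll1 was the marker listed at 0 in a library. Of 10 T cell core genes 9 fell, with a median of -0.67, and of 5 erythroid markers 3 fell. Of 6 Treg markers 5 fell, with a median of -0.65. On the T cell core scale the medians were -0.69 for monocyte and macrophage, -1.54 for B cell and -0.53 for plasmacytoid dendritic markers. The medians there were -0.50 for NK and -0.01 for Treg markers, and the erythroid median turned to 0.02. Of the 10 monocyte and macrophage markers 6 were lower there and 2 higher, and of the 5 NK markers 2 were lower and 1 higher.

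Of 12 neutrophil markers 10 rose and 2, Elane and Mpo, did not pass. Their median log2 change was 0.37 and the highest 0.66, below the 0.99 of Slfn4. On the T cell core scale all 12 were higher, with a median of 1.05, but so were 8824 of all 10666 tested genes. The part of neutrophil transcripts in the rise of Slfn4 was not tested. Scaling each library to the 10 T cell core genes raised the median log2 change of all tested genes to 0.59. On that scale Slfn5 stood at -1.02, Slfn8 at -0.70 and Slfn4 at 1.66, and relative to the median there they stood at -1.61, -1.29 and 1.07. Slfn1 and Slfn9 stood at 0.49 and 0.43, and at -0.10 and -0.16 relative to that median.

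**Figure D5:**
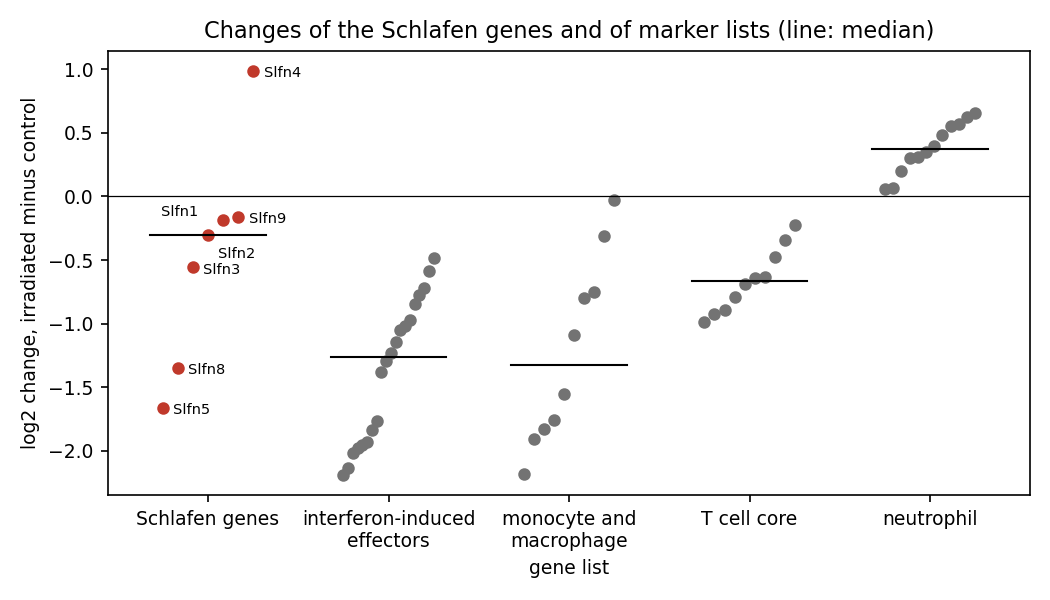
Log2 change, irradiated minus control, of the 7 Schlafen genes (red) and of the tested genes of 4 lists (grey), with the median of each list as a line and no scaling to T cell core genes. Slfn5 and Slfn8 lie among the interferon-induced effectors, and Slfn4 (0.99) lies above the highest neutrophil marker (0.66).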

How the data were processed

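RNA was measured in 6 libraries, 3 per group, grouped by title. Per the labels' protocols RNA came from a low-input column kit and libraries from a stranded mRNA kit, and the tools named in the submitters' processing notes are fastp, HISAT2 and StringTie, with the builds GRCm38 and mm10. For their versions, settings and annotation, the status is: not given in the sources used here. Each deposited file of the authors holds gene-level FPKM (fragments scaled to transcript length and library size), a unit inferred from the tools and the values, without counts, so depth is unknown and no counting interval is given. Column totals were 451443.8 to 485365.0 FPKM.

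The test, two-sided, used limma 3.58.1 (lmFit, eBayes with trend; R 4.3.3) on log2(FPKM + 1) for genes averaging 1 FPKM or more, with Benjamini-Hochberg adjustment over all tested genes. The scale understates changes of low genes. The test was also checked on simulated data. Levels, ratios and 50-base overlaps were computed in Python 3.11.15, and upstream sequences were aligned with Biopython 1.88. Members and lists were chosen with earlier results of these data known. Named genes were all members, gate markers and the 3 genes most similar to each member. Up to 6 neighbours and up to 4 genes per list were named by lowest p. Others (Klf2, Ang, Ifnar1, Ifnar2, Socs3, Mmp28, C1q genes, Elane, Mpo, Igll1, Irf8, Bst2, Nkg7) were picked after their values were seen. Gene positions come from GENCODE M21 on GRCm38 and promoters from RefSeq GRCm38.p6. Alternatives are listed in the closing section. A gene of the interferon signalling list that the rule names is not reported here.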

Additional observations from a re-analysis of the deposited data

How the results depend on the processing

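The alternatives were a pseudocount of 0.1, a minimum mean of 5 FPKM or no filter, no variance trend, median-of-ratios, quantile and T cell core scaling, a block on the replicate number, and fits that each dropped 1 library. Apart from T cell core scaling, the members ranged from -0.22 to -0.12 for Slfn1, -0.35 to -0.25 for Slfn2, -0.65 to -0.49 for Slfn3, 0.82 to 1.20 for Slfn4, -1.75 to -1.63 for Slfn5, -1.44 to -1.26 for Slfn8 and -0.21 to -0.10 for Slfn9. Among these fits the single member call that changed was that of Slfn2 without the trend (-0.30, adjusted p = 0.0513), and the cause was not tested.

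T cell core scaling raises all genes together by construction, with a median of 0.59. It turned Slfn1 to 0.49, Slfn2 to 0.38, Slfn3 to 0.069 and Slfn9 to 0.43. Among other named genes it turned Ankfy1 to 0.48, Arid4b to 0.48, Btg1 to 0.28, Btg2 to 0.15, C1galt1c1 to 0.37, Ccl6 to 0.50, Cd3e to 0.023, Fkbp1a to 0.38, Foxo1 to 0.11, Ftsj3 to 0.51, Glcci1 to 0.022, Nfkb2 to 0.088, Nsun2 to 0.45, Peli1 to 0.25, Plbd2 to 0.33, Ptafr to 0.49, Rmnd5a to 0.45, Rtcb to 0.43 and Zfp24 to 0.46. Ccl5, Cd4, Foxp3, Irf9 and Klrb1c kept a negative change on that scale but lost their calls (-0.025, -0.029, -0.15, -0.07 and -0.21). With it 4 members were higher and 2 lower, as were 8824 and 227 of all genes, 7 and 3 interferon signalling genes, 13 and 1 quiescence genes, and 12 and 0 transfer RNA genes.

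With a minimum mean of 5 FPKM, which tests fewer genes, 4 quiescence genes fell. Without the trend 1 transfer RNA gene rose and 0 fell, and the cause was not tested. Leaving out 1 library gave 414 to 684 genes higher and 722 to 978 lower, lowest without control replicate 2, and 0 to 1 transfer RNA genes lower, with fewer samples in each fit. Deviations of same-numbered libraries correlated at 0.011, -0.042 and -0.023, so they showed no strong shared shift. Such correlations cannot settle whether the numbers pair the samples. The fit with the replicate block called 558 genes higher and 948 lower, and 1 member higher and 4 lower. Without counts, the depth that limits low genes such as Slfn9 is unknown.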
